A study of Mus musculus with 2 samples.

Results

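Apoe and 5 genes that carry, export, break down or take up lipids were followed through the cell types of the mouse anterior hypothalamus at 22 and at 3 months of age. The 6 genes are Apoe (ENSMUSG00000002985), Clu (ENSMUSG00000022037), Apod (ENSMUSG00000022548), Abca1 (ENSMUSG00000015243), Lpl (ENSMUSG00000015568) and Lrp1 (ENSMUSG00000040249), each found once among 32289 features. They were chosen by name, with earlier values of these libraries known, so their levels are given as a description. Lipids move between brain cells on particles built around apolipoproteins. Glia load apolipoprotein E with cholesterol through the ABCA1 pump, and cells take the particles up through receptors of the LDL receptor family such as LRP1. Microglia, the resident macrophages of the brain, are known to raise Apoe and Lpl when they leave their resting state, and oligodendrocytes, which make myelin, use large amounts of cholesterol.

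The study compared aged with young male mice, and series and labels name 1 library per age: nuclei of the anterior hypothalamus, with the preoptic area, pooled from 5 male mice of 22 months and from 5 male mice of 3 months. The young mice are given as wild-type, the strain is not given, and no treatment is named. Nuclei were freed of myelin with magnetic beads and sorted for DAPI before droplet capture, and the mice of a pool cannot be told apart. Barcodes with 500 or more genes and at most 5% mitochondrial counts numbered 8597 at 22 months and 10437 at 3 months, of which 25 sequences occur in both. They held 57472005 and 69103229 unique molecular identifiers (UMIs, counted RNA molecules). After removal of 368 aged and 489 young doublets, 8229 and 9948 nuclei were clustered and named from marker genes.

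The classes used are microglia (411 aged and 477 young nuclei), astrocytes (156 and 387), oligodendrocytes (1881 and 2134), oligodendrocyte precursors (183 and 253) and neurons (4999 and 6429). Each class was named from its defining markers, and their sums were highest in the class of that name. Microglial markers summed to 17985 CPM (UMIs per 1000000 UMIs of a class) aged and 21033 CPM young in microglia, against at most 198 CPM in the other 4 classes. Astrocyte markers summed to 12878 and 13632 CPM in astrocytes, against at most 1389 CPM elsewhere. Oligodendrocyte markers summed to 20734 and 21132 CPM (at most 1492 CPM elsewhere), precursor markers to 14059 and 13268 CPM (at most 1815 CPM) and neuron markers to 21307 and 23428 CPM (at most 2349 CPM). Border macrophages, the macrophages of the meninges and vessels, formed a class of their own with 15 aged and 24 young nuclei. One cluster of 519 aged and 88 young barcodes with a median of 687 UMIs stayed unnamed and is in none of these classes. Levels of genes are CPM of their class. They are compared for 1 gene at a time, since the counts are not scaled to gene length. Since each age has 1 library, no test between ages was made, and the 95% intervals printed cover counting error only. RNA free in the droplets was read from barcodes of 100 or fewer UMIs. From markers of other classes it was estimated at 6.14 to 21.9% of the UMIs of a class. A class level under that of free RNA can thus still hold RNA of its own cells. The estimate of 21.9%, in aged astrocytes, rests on neuron markers, of which 4 nuclei held 797 of 1331 UMIs. It can therefore be too high.

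Of 30 pairs of gene and class, 27 had 50 or more UMIs over both libraries. Among these, 4 were at least 1.5-fold higher in the aged library and 1 was at least 1.5-fold lower. In microglia 3 of 6 genes passed upward (Apoe, Clu and Lpl) and 0 downward, where 7.97% and 4.75% of all 6973 features with that many UMIs did. In oligodendrocyte precursors Clu passed upward and Apod downward among 5 measured, beside a background of 6.9% and 6.76%. Without 2 aged and 20 young nuclei that a finer clustering named committed precursors, Clu stood at a ratio of 1.49 and did not pass. In astrocytes 0 of 5 passed (background 7.42% upward and 6.03% downward), in oligodendrocytes 0 of 5 (7.04% and 2.76%) and in neurons 0 of 6 (3.04% and 6.39%). Because the genes were picked with such values in view, nothing is read from these counts.

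**Figure D1:**
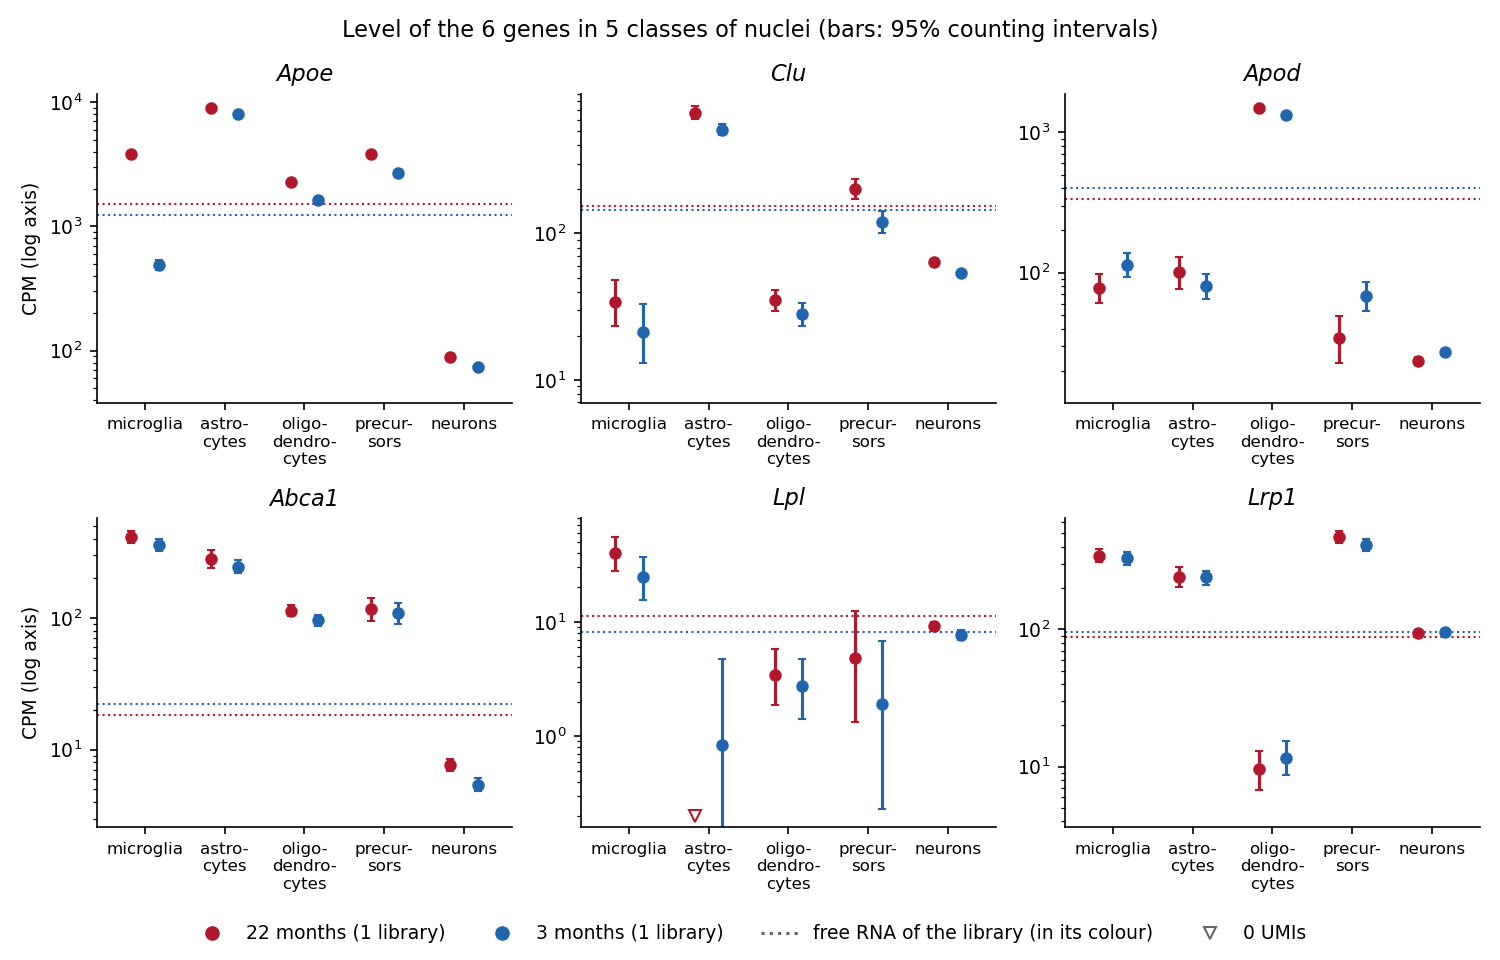
CPM in each class (log axis) for the 6 genes, with the 22-month library in red left of the 3-month library in blue, 95% counting intervals, and dotted lines for the level in free RNA. Apoe in microglia stands at 3857 CPM aged and 491 CPM young, the widest gap between libraries among the points shown.

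Apoe encodes apolipoprotein E, the main lipid carrier made in the brain. RefSeq lists 3 starts for it, and the window that runs from 250 bases before to 50 bases after the first, at chr7:19699139-19699438 on the minus strand of GRCm38.p6, is shown because the widest age difference among the 6 genes is that of Apoe in microglia.
Apoe: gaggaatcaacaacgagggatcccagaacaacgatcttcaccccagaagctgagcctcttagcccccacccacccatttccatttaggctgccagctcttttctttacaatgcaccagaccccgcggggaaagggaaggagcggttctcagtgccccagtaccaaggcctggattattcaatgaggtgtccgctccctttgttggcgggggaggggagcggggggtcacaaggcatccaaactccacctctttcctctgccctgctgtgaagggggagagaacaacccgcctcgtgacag
Both strands were searched for 4 motifs, namely the TATA box (TATAAA, found in 13.6% of 32851 promoter windows of that length), the GC box (GGGCGG, 35.7%), the E-box (CACGTG, 7.15%) and TGACCG followed after 4 bases by TAACC (0.0122%). Matches of different motifs did not overlap in the windows printed. The window printed for Apoe holds none of these letters, so none are in capitals. That of the second start holds TATAAA on each strand, at positions -100 and -96 from that start, and that of the third start holds none of the 4.

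Apoe was highest in astrocytes in both libraries. In the aged library it stood at 8969 CPM in astrocytes (8724 to 9219), 3857 in microglia (3732 to 3985), 3827 in oligodendrocyte precursors (3694 to 3963), 2264 in oligodendrocytes and 88.9 in neurons. In the young library the levels were 8056 CPM in astrocytes, 2705 in precursors, 1635 in oligodendrocytes, 491 in microglia (447 to 538) and 73.5 in neurons. The intervals of aged microglia and aged precursors overlap, so their order is not resolved, while all other neighbours in either library are apart. In these sums microglia therefore ranked below astrocytes and level with precursors in the aged library, and below every other glial class in the young one. The median aged nucleus had 5.33 Apoe UMIs per 10000 UMIs in microglia, 35.8 in precursors and 20.4 in oligodendrocytes. By that median aged microglia lay below oligodendrocytes too. Microglia were 5.39% of aged and 4.93% of young nuclei of these classes, and held 14.3% of their Apoe UMIs at 22 months and 1.91% at 3 months. Neurons lay far under free RNA, which held 1529 CPM of Apoe at 22 months and 1242 CPM at 3 months. With free RNA estimated at 9.84% of aged and 9.92% of young neuronal UMIs, the neuronal values are read as background.

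In microglia, 3611 Apoe UMIs were counted at 22 months and 460 at 3 months, a ratio of 7.86 (7.13 to 8.68). The young microglial level lay below that of free RNA and the aged one above it. Free RNA was estimated at 16.5% of aged and 11.1% of young microglial UMIs, so the young level is not read as background. An Apoe UMI was seen in 64.7% of aged and 43.0% of young microglial nuclei. With each nucleus thinned to 1000 UMIs the shares were 48.6% (43.7 to 53.6) aged and 31.5% (27.3 to 36.0) young, with 4 aged and 14 young nuclei too shallow to use. In neurons, which serve as the class near background, the thinned shares were 9.32% and 8.48%, at a median depth of 8353 and 7761 UMIs against 2136 and 1806 in microglia. The shares thus differed less than the levels did.

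The Apoe UMIs of microglia were unevenly spread over nuclei. In the aged library 145 microglial nuclei had no Apoe UMI, 160 had 1 to 4, 58 had 5 to 19 and 48 had 20 or more. In the young library the numbers were 272, 192, 10 and 3. Nuclei with 20 or more made up 11.7% of aged (8.74 to 15.2) and 0.629% of young microglia (0.130 to 1.83). In the aged library these 48 nuclei held 2786 of the 3611 Apoe UMIs, and the highest held 224, against 64 in the highest young nucleus. The tenth of nuclei with most Apoe held 73.4% of the aged and 58.7% of the young UMIs. Since 5 mice were pooled, whether these nuclei came from 1 mouse or several cannot be told apart.

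Nuclei with more Apoe also differed in other microglial genes. Of a list of genes of activated microglia, 23 were found among the features. Over aged microglia Ctsd, Cd9, Trem2 and Ctsz held the most UMIs of the list (1403, 1066, 902 and 673). Lyz2, Axl, Itgax and Spp1 held 231, 34, 30 and 24. The list summed to 6444, 6264, 7825 and 11651 CPM in aged nuclei with 0, 1 to 4, 5 to 19 and 20 or more Apoe UMIs. Genes of resting microglia (15 found, among them P2ry12, Cx3cr1 and Tmem119) summed to 21056, 19780, 19357 and 12399 CPM in the same order. Thus the group with most Apoe had the highest activated sum and the lowest resting sum. Abca1 was 402, 411, 418 and 447 CPM across the same nuclei. Markers of border macrophages summed to 309 CPM in aged nuclei with 20 or more Apoe UMIs and 134 to 176 CPM in the other 3 groups, and neuron markers were at 1280 CPM against 1434 to 2279 CPM. The part of these other cell types in the result was not tested.

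Over all microglia, 7 of 16 measured genes of the activated list passed 1.5-fold upward (Ank, Ccl6, Cd63, Cd9, Csf1, Lgals3bp and Lyz2) and 0 downward, with a median log2 ratio of 0.51. Over all features of the class 7.97% passed upward and 4.75% downward. Tyrobp of the activated list was lower in the aged library, at 359 CPM (322 to 399) against 448 CPM young (406 to 493). Trem2 (963 CPM aged, 960 CPM young) and Ctsd (1499 and 1523 CPM) were about level. Of 15 genes of the resting list, 0 passed upward and 3 downward (Cst3, Fcrls and Olfml3), with a median of -0.43. Over all 6973 measured features the median was 0.04. Lyz2, the lysozyme gene of macrophages, stood at 247 CPM aged (231 UMIs) and 49.1 CPM young (46 UMIs). Itgax, which encodes the integrin CD11c, had 30 aged UMIs and 1 young UMI. Lgals3, which encodes galectin 3, had 19 aged and 0 young, and a count of 0, taken as a limit of 3 counts, allows up to 3.20 CPM.

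Microglia were split again without the lipid genes, into 3 sub-clusters. The sub-cluster numbered 1 held 133 aged nuclei (32.4% of aged microglia) and 18 young nuclei (3.77%), and its leading genes were Lilrb4a, Apoe, Xylt1, Dlg2 and Lsamp. In it Apoe stood at 8132 CPM aged and 1617 CPM young, 5.03-fold apart. In sub-cluster 0, led by mitochondrial genes, it was 1914 CPM aged (129 nuclei) and 548 CPM young (96 nuclei), 3.49-fold apart. In sub-cluster 2 it was 945 CPM aged (149 nuclei) and 370 CPM young (363 nuclei), 2.55-fold apart. Apoe was thus higher in the aged library in each of the 3, and sub-cluster 1 held 76.8% of aged and 22.0% of young microglial Apoe UMIs. In that sub-cluster the activated list summed to 8695 CPM aged and 4403 CPM young, and the resting list to 14915 and 15756 CPM. Neuron markers there summed to 2224 CPM aged and 7878 CPM young, against 1768 and 1582 CPM over all microglia, and precursor markers to 141 and 2018 CPM. Their part in the young value of that sub-cluster was not tested.

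**Figure D2:**
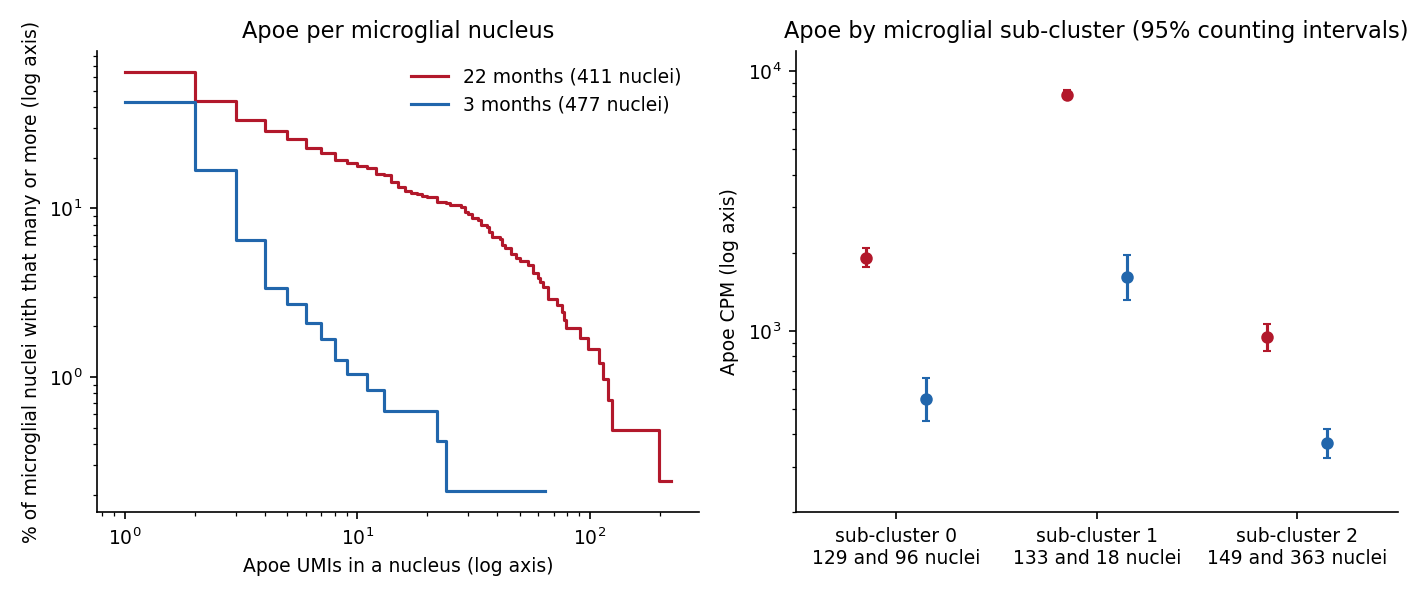
Left, the percentage of microglial nuclei with a given number of Apoe UMIs or more (both axes log), for 411 nuclei at 22 months (red) and 477 at 3 months (blue). Right, Apoe CPM in the 3 microglial sub-clusters (log axis, 95% counting intervals), where the 22-month value is the higher in each, from 945 to 8132 CPM against 370 to 1617 CPM at 3 months.

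The size of the microglial Apoe ratio depended on which nuclei were called microglia. Border macrophages held Apoe at 10516 CPM aged (340 UMIs in 15 nuclei) and 18092 CPM young (762 UMIs in 24 nuclei), a ratio of 0.581 (0.510 to 0.661). Joined with microglia they gave 3.27-fold (3.07 to 3.49). When nuclei were called by a 2-stage test, 9 aged and 10 young border macrophage nuclei clustered with microglia, and the young ones alone brought 349 Apoe UMIs. The ratio was then 4.52, and 7.83 with those nuclei left out. Leaving out sub-cluster 1 brought the log2 ratio to 1.77 from 2.96. In each of these settings Apoe was higher in aged microglia.

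In the other glia the Apoe ratios were smaller. Oligodendrocyte precursors, the dividing cells that give rise to oligodendrocytes, had 3143 aged and 2852 young UMIs and a ratio of 1.42 (1.34 to 1.49). A nucleus held a median of 16 Apoe UMIs at 22 months and 10 at 3 months, and the thinned share with a UMI was 94.5% (90.2 to 97.3) aged and 83.8% (78.7 to 88.1) young. The precursor class was not made up alike in both libraries. Oligodendrocyte markers in it summed to 547 CPM aged and 1492 CPM young, and markers of committed precursors, the stage between both, to 1358 and 2740 CPM. A finer clustering (resolution 2) named 2 aged and 20 young of these nuclei committed precursors, and the 20 held Apoe at 155 CPM. Without them the oligodendrocyte markers were at 506 CPM aged and 453 CPM young, those of committed precursors at 1182 and 1250 CPM, and the Apoe ratio was 1.26 (1.20 to 1.33). Oligodendrocytes had 9253 aged and 7186 young UMIs and a ratio of 1.38 (1.34 to 1.43), with thinned shares of 84.5% and 72.7%. Precursor markers in oligodendrocytes summed to 377 CPM aged and 265 CPM young, and neuron markers to 1482 and 1158 CPM. The part of these cell types in the Apoe ratio was not tested. The finer clustering named 12 aged and 125 young oligodendrocyte nuclei committed precursors, and without these the Apoe ratio was 1.40 (1.36 to 1.45). In the 125 young nuclei committed precursor markers summed to 974 CPM, against 866 CPM in the young oligodendrocytes kept. Oligodendrocyte markers were at 22515 and 21000 CPM, so these sums do not bear out the name. Astrocytes had 5082 aged and 9541 young UMIs and a ratio of 1.11 (1.08 to 1.15), and every astrocyte nucleus of both libraries held an Apoe UMI. In the astrocytes of the aged library a nucleus held a median of 24.5 Apoe UMIs with a range of 3 to 209, and in the young library a median of 21 with a range of 1 to 100, so nuclei of both ages overlapped widely. Neuron markers summed to 2349 CPM in aged and 878 CPM in young astrocytes. A sub-cluster of 4 aged nuclei led by Mctp1, Kcnq5 and Nrg1 held 797 of those 1331 aged UMIs. Without it neuron markers were at 1017 CPM aged and 878 CPM young, and the Apoe ratio of astrocytes was 1.18 (1.14 to 1.22). The sub-cluster of astrocytes led by Emx2os and Crym had 11913 CPM aged (41 nuclei) and 9046 CPM young (128 nuclei), and the larger sub-cluster had 8547 CPM aged (111 nuclei) and 7542 CPM young (259 nuclei).

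Over all 10 sums of class and library, the genes whose CPM followed Apoe most closely among 15408 compared were Wdpcp (Pearson r = 0.96), Il18 (0.96) and Nfia (0.94). Of the other 5 genes, Abca1 was the nearest (0.82), followed by Clu (0.55), Apod (0.31), Lrp1 (0.23) and Lpl (-0.36). These r values describe 5 classes that share their 2 libraries.

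Clu encodes clusterin, also called apolipoprotein J, a carrier that astrocytes release. It was highest in astrocytes, with 669 CPM aged (379 UMIs, 603 to 740) and 513 CPM young (608 UMIs, 473 to 556), a ratio of 1.30 (1.14 to 1.48), or 1.38 (1.21 to 1.57) without the 4 nuclei rich in neuron markers. The sub-cluster of astrocytes with more Apoe also had more Clu, at 1025 CPM aged and 771 CPM young, against 584 and 380 CPM in the larger one. Precursors came next with 201 CPM aged (165 UMIs) and 120 CPM young (127 UMIs), a ratio of 1.67 (1.32 to 2.12). Oligodendrocyte markers, at 547 CPM aged and 1492 CPM young, moved the other way in this class. Without the nuclei named committed precursors Clu was at 202 CPM aged and 135 CPM young, a ratio of 1.49 (1.18 to 1.9), which is under the 1.5-fold limit. Their thinned share with a Clu UMI was 20.2% (14.7 to 26.8) aged and 10.7% (7.15 to 15.1) young. In free RNA Clu stood at 155 CPM aged and 145 CPM young, so the young precursor level lay below it and the aged one above it. Microglia had 32 aged and 20 young Clu UMIs, 34.2 and 21.3 CPM, and oligodendrocytes 35.0 and 28.2 CPM, all below free RNA. The microglial ratio of 1.60 has an interval of 0.888 to 2.96, which includes 1. The genes closest to Clu over classes were Slc1a2 and Atp1b2, genes of astrocyte transmitter and ion transport, and Nwd1 (r = 0.99 for each).

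In neurons Clu stood at 63.7 CPM aged (2967 UMIs) and 53.7 CPM young (2996 UMIs), a ratio of 1.19 (1.13 to 1.25). Both levels, and those of all 23 sub-clusters with at least 15 nuclei in each library, lie under free RNA (155 and 145 CPM). Free RNA was estimated at 9.84% of aged and 9.92% of young neuronal UMIs, so these levels can hold RNA of the neurons. Clu differed more between neuron sub-clusters than between ages. Over these 23 in the aged library the level ran between 24.6 (20.2 to 29.6) and 113 CPM (86.5 to 145), with a median of 57.2 CPM, so the ends are apart beyond counting error. The sub-clusters led by Egfr (113 CPM aged, 81.1 CPM young), by Gal, Tac2 and Esr1 (108 and 94.3 CPM) and by Il31ra (107 and 79.9 CPM) were at the upper end. At the lower end were those led by Adora2a and Drd2 (24.6 CPM aged, 23.4 CPM young) and by Impg1 and Drd1 (31.3 and 21.8 CPM), both with dopamine receptor genes of striatal neurons. Those led by Gm12068 and Folh1 (24.6 CPM aged, 27.3 CPM young) and by Synpo2 and Plekhg1 (25.2 and 21.7 CPM) were as low. Clu was higher in the aged library in 21 of 23 sub-clusters, and the interval of the ratio lay above 1 in 5 of them. Apoe, read as background in neurons, was higher in 18 of 23, with the interval above 1 in 7 and below 1 in 2. All sub-clusters share the same 2 libraries, so nothing is read from either count.

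Apod encodes apolipoprotein D, a lipocalin that binds arachidonic acid and other small lipids and is made by myelinating glia. The window around its start, at chr16:31314759-31315058 on the minus strand of GRCm38.p6, is shown beside those of Apoe and Abca1 because Apod was the gene of the 6 that was highest in oligodendrocytes among the 5 classes.
Apod: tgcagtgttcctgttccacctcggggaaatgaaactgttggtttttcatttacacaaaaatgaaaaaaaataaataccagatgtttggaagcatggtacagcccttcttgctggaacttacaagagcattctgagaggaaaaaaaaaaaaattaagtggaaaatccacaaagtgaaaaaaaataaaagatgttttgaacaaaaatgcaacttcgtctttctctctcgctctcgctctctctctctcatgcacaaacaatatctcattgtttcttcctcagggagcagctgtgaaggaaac
It holds none of the 4 motifs searched, so no letters are in capitals.

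Apod was highest in oligodendrocytes, at 1493 CPM aged (6102 UMIs, 1456 to 1531) and 1326 CPM young (5829 UMIs, 1293 to 1361), a ratio of 1.13 (1.09 to 1.17), or 1.07 (1.04 to 1.11) without the nuclei named committed precursors. That class held 83.0% of aged and 76.5% of young Apod UMIs of the 5 classes. A UMI was seen in 63.4% (61.2 to 65.6) of aged and 64.8% (62.7 to 66.8) of young oligodendrocyte nuclei thinned to 1000 UMIs, so the shares overlap within counting error while the levels do not. All other main classes lay under free RNA (338 CPM aged and 402 CPM young), with 23.5 to 101 CPM aged and 27.2 to 114 CPM young. Free RNA was estimated at 9.84% of aged and 9.92% of young neuronal UMIs and at 16.3% of aged precursor UMIs. At those shares it alone would bring as much Apod or more, so these values are read as background. How much of the other levels is free RNA is not resolved here. The precursor ratio of 0.499 (0.311 to 0.783) rests on 28 aged and 72 young UMIs at 34.1 and 68.3 CPM. Oligodendrocyte markers were lower in aged precursors too, at 547 CPM aged and 1492 CPM young. Without the nuclei named committed precursors these markers were at 506 and 453 CPM, and the Apod ratio was 0.514 (0.317 to 0.816). The genes nearest to Apod over classes were Arrdc2, Ermn and Mal (r = 0.99, 0.99 and 0.98), of which Ermn and Mal encode myelin proteins.

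Within oligodendrocytes Apod and Apoe were distributed in opposite ways. The sub-cluster led by Enpp6, Cntn3 and Agmo held 323 aged and 411 young nuclei. Enpp6 is known as a marker of newly formed oligodendrocytes, but the maturity of this sub-cluster was not tested. Apod stood there at 2889 CPM aged and 2195 CPM young, 1.32-fold apart. In the sub-cluster led by mitochondrial genes (474 aged and 462 young nuclei) Apod was 1150 and 1190 CPM, and in the largest (1084 aged and 1261 young nuclei) 1096 and 1014 CPM. Apoe was lowest in the Enpp6 sub-cluster, with 1614 CPM aged and 820 CPM young, against 2584 and 1860 CPM and 2373 and 1890 CPM in the others. The Apoe ratio there was 1.97, against 1.39 and 1.26 in the others. Abca1 was 151 CPM aged and 125 CPM young in the Enpp6 sub-cluster and 103 to 105 CPM aged and 84.7 to 93.5 CPM young in the others. The sub-clusters come from genes of the same nuclei, so no test was made between them.

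**Figure D3:**
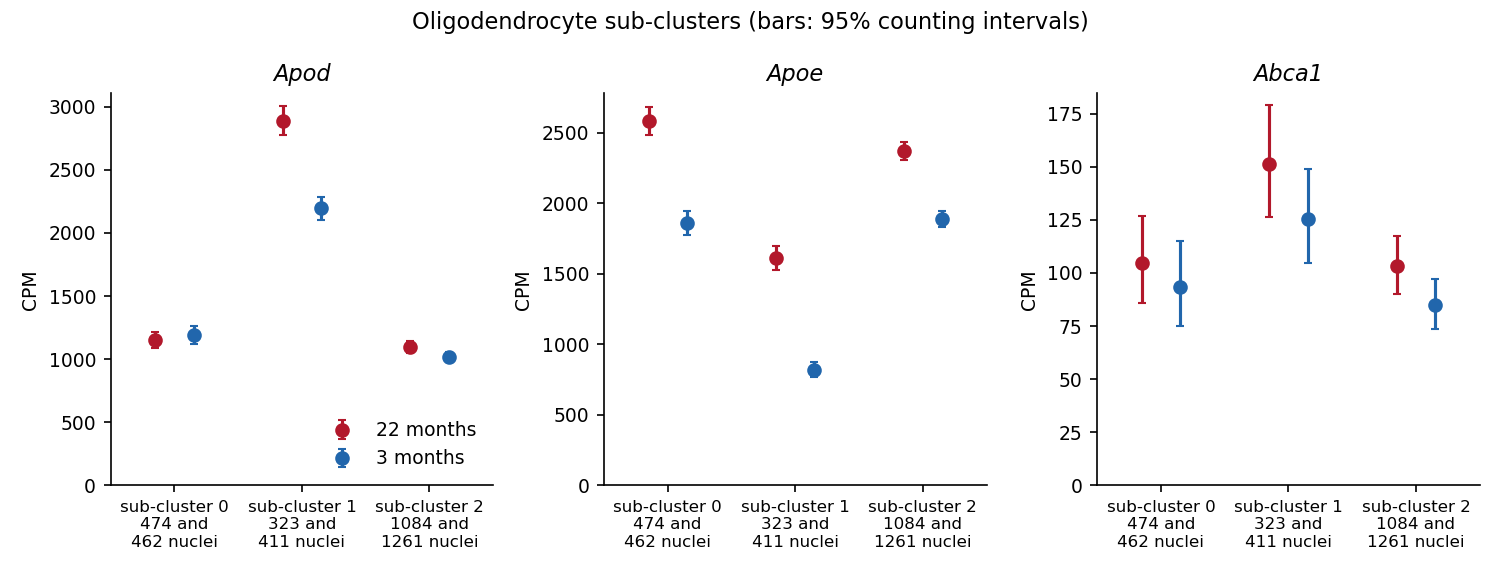
CPM of Apod, Apoe and Abca1 in the 3 oligodendrocyte sub-clusters (linear axes from 0, 22 months in red left of 3 months in blue, 95% counting intervals). Sub-cluster 1, led by Enpp6, has the highest Apod (2889 CPM aged, 2195 CPM young) and the lowest Apoe (1614 CPM aged, 820 CPM young).

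Outside the main classes, fibroblasts, the connective tissue cells of the meninges and vessels, also held much Apod. The class had 5992 CPM in 16 aged nuclei and 1590 CPM in 94 young nuclei, a ratio of 3.77 (3.30 to 4.30). A cluster of 32 nuclei led by Bnc2 came only from the young library and held Apod at 108 CPM. In the cluster that both libraries share (16 aged and 62 young nuclei) Apod was 5992 CPM aged and 3850 CPM young, a ratio of 1.56 (1.36 to 1.78). Apoe in fibroblasts turned direction with that cluster: 1.35-fold higher in the aged library over the class, and a ratio of 0.568 (0.479 to 0.671) in the shared cluster.

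Abca1 encodes the membrane pump that loads cholesterol onto apolipoprotein E and A1, and is a known target of the liver X receptors, the nuclear receptors for oxidised cholesterol. The window around its start, at chr4:53159846-53160145 on the minus strand of GRCm38.p6, is shown because it holds letters known from that regulation.
Abca1: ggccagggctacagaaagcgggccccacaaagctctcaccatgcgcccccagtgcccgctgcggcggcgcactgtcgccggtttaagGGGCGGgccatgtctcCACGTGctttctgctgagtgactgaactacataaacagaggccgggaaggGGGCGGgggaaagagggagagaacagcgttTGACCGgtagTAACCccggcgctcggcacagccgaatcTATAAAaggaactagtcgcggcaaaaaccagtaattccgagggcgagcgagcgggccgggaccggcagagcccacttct
The capitals mark the GC box at 2 places, the E-box, the TATA box and TGACCG followed after 4 bases by TAACC, the letters and spacing of the liver X receptor element described in the human ABCA1 promoter. The last pair is found in 4 of 32851 promoter windows (0.0122%). It was chosen from that human element and has more letters than the other motifs, so nothing is read from its low share. A match is a description of the letters, and no binding was measured here.

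Abca1 was highest in microglia, with 413 CPM aged (387 UMIs, 373 to 457) and 360 CPM young (337 UMIs, 322 to 400), a ratio of 1.15 with an interval of 0.991 to 1.33 that includes 1. Astrocytes followed with 281 CPM aged and 245 CPM young, then precursors with 117 and 109 CPM and oligodendrocytes with 114 and 96.0 CPM, a pair whose intervals overlap in both libraries. The oligodendrocyte ratio was 1.18 (1.04 to 1.35). Over all microglia Abca1 thus differed 1.15-fold, in the same nuclei in which Apoe differed 7.86-fold. In microglial sub-cluster 1 Abca1 was 422 CPM aged (144 UMIs) and 224 CPM young (14 UMIs), a ratio of 1.88 (1.09 to 3.53). In sub-cluster 0 it was 361 and 302 CPM, and in sub-cluster 2 452 and 389 CPM. Free RNA held 18.3 CPM aged and 22.1 CPM young, under all 4 glial classes. Hsd17b11, Gtf2a2 and Lats2 were nearest to Abca1 over classes (r = 0.99, 0.99 and 0.98).

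In neurons Abca1 was 7.63 CPM aged (355 UMIs) and 5.41 CPM young (302 UMIs), a ratio of 1.41 (1.21 to 1.65) at levels under free RNA. The neuron sub-cluster led by Ebf2 and Ebf3 stood apart in the aged library, with 73.4 CPM (21 UMIs in 53 nuclei) against 17.3 CPM young (7 UMIs in 80 nuclei), a ratio of 4.25 (1.74 to 11.8). Abca1 was higher in the aged library in 12 of the 13 sub-clusters that had 20 or more UMIs, with the interval above 1 in 2 of them. These sub-clusters too share the same 2 libraries.

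Lpl encodes lipoprotein lipase, which frees fatty acids from the triglycerides of lipoproteins, and is a known marker of activated microglia. Microglia had the highest level, 39.5 CPM aged and 24.5 CPM young, from 37 aged UMIs in 19 nuclei and 23 young UMIs in 6 nuclei. The ratio of 1.61 has an interval of 0.932 to 2.84. The UMIs were concentrated in microglial sub-cluster 1, which held 31 of 37 aged UMIs in 13 nuclei and 18 of 23 young UMIs in 2 nuclei. Within it the direction was the other one, with 90.9 CPM aged and 288 CPM young, a ratio of 0.316 (0.171 to 0.599). The young value rests on 2 nuclei, and the interval does not cover the spread between nuclei. Neuron markers in that sub-cluster summed to 2224 CPM aged and 7878 CPM young, and their part was not tested. In the other 2 sub-clusters Lpl had 2 to 4 UMIs per library. In aged microglia, nuclei with 5 to 19 Apoe UMIs had 119 CPM of Lpl (16 UMIs) and those with 20 or more had 112 CPM (13 UMIs), against 16.0 CPM (5 UMIs) and 8.05 CPM (3 UMIs) in nuclei with 0 and with 1 to 4. In young microglia the order was not the same: 14 Lpl UMIs (27.0 CPM) were in nuclei with 0 Apoe UMIs, 1 in those with 1 to 4, 0 in the 10 nuclei with 5 to 19 and 8 in the 3 nuclei with 20 or more. Astrocytes had 0 aged UMIs, which with a limit of 3 counts allows up to 5.29 CPM, and 1 young UMI. Oligodendrocytes had 3.43 CPM aged (14 UMIs) and 2.73 CPM young (12 UMIs), below free RNA at 11.3 and 8.15 CPM.

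Neurons held most Lpl UMIs, 424 aged and 426 young, at 9.11 and 7.63 CPM, a ratio of 1.19 (1.04 to 1.37). These levels of the whole class lie under free RNA (11.3 and 8.15 CPM), while in each of the 4 sub-clusters with most Lpl UMIs the level lies above it. The UMIs were gathered in few neuron types. These 4 sub-clusters made up 28.0% of aged and 26.8% of young neurons and held 83.5% of aged and 78.9% of young neuronal Lpl UMIs. In the Impg1 and Drd1 sub-cluster Lpl was 30.9 CPM aged (164 UMIs) and 23.4 CPM young (133 UMIs), a ratio of 1.32 (1.05 to 1.68). In the Adora2a and Drd2 sub-cluster it was 25.5 CPM aged (113 UMIs) and 17.7 CPM young (96 UMIs), a ratio of 1.44 (1.09 to 1.91). In the one led by Gm2164 it was 23.2 CPM aged (63 UMIs) and 28.9 CPM young (92 UMIs), a ratio of 0.801 (0.572 to 1.12). The sub-cluster led by Atp6ap1l and Ust had 17.5 and 14.1 CPM. The median over sub-clusters was 2.48 CPM aged and 2.14 CPM young. Both dopamine receptor sub-clusters were thus high in Lpl and low in Clu, while the Gm12068 and the Synpo2 sub-clusters, as low in Clu, had 6.38 and 4.12 CPM of Lpl aged and 5.17 and 7.03 CPM young.

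**Figure D4:**
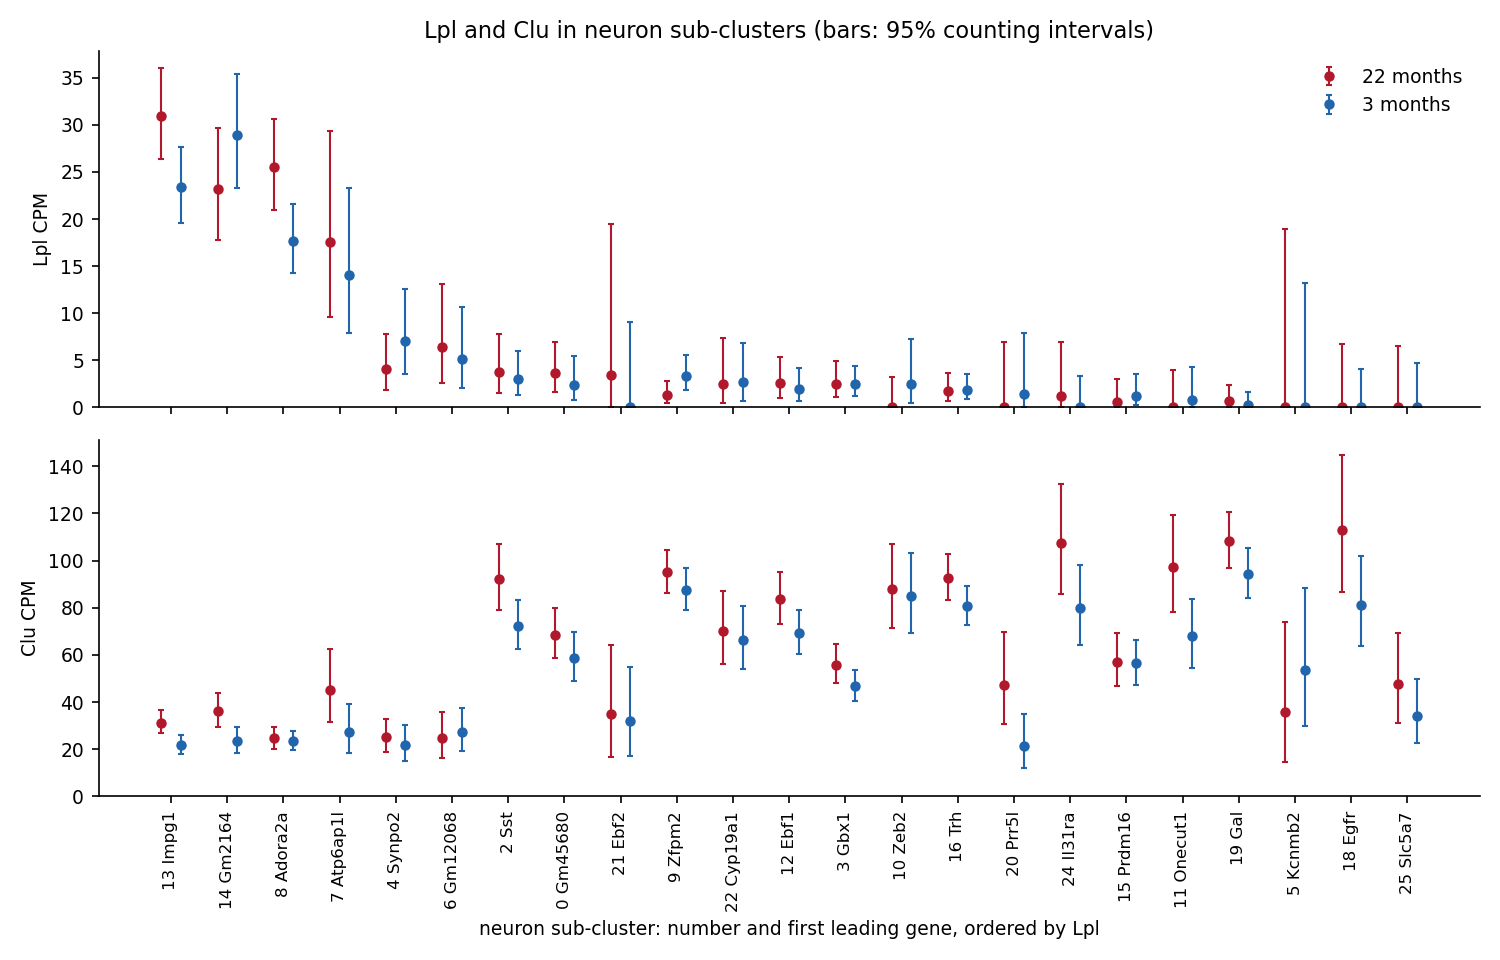
CPM of Lpl (top) and Clu (bottom) in the 23 neuron sub-clusters with at least 15 nuclei in each library, ordered by Lpl, with 22 months in red left of 3 months in blue and 95% counting intervals. Lpl stands above 14 CPM in the 4 leftmost sub-clusters of both libraries (30.9 CPM aged and 23.4 CPM young in the one led by Impg1 and Drd1), where Clu is 24.6 to 45.0 CPM aged and 21.8 to 27.3 CPM young.

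Lrp1 encodes a large endocytic receptor that takes up apolipoprotein E particles. An antisense gene, Gm16217, overlaps it on the opposite strand in the GENCODE M21 annotation, and whether counting used strand is not stated in the sources read, so reads of both could be mixed. Lrp1 was highest in precursors, with 470 CPM aged (386 UMIs, 424 to 519) and 411 CPM young (433 UMIs, 373 to 451), a ratio of 1.14 (0.995 to 1.32). Microglia followed with 344 CPM aged and 328 CPM young, then astrocytes with 242 and 238 CPM and neurons with 93.5 and 95.4 CPM. Oligodendrocytes were lowest, with 9.54 CPM aged (39 UMIs) and 11.6 CPM young (51 UMIs), and these neighbours were apart beyond their intervals within each library. The ratios were 1.05 (0.895 to 1.23) in microglia, 1.02 (0.822 to 1.25) in astrocytes and 0.981 (0.942 to 1.02) in neurons, and each interval includes 1. Oligodendrocytes and their precursors differed in opposite ways for Lrp1 and Apod: precursors led in Lrp1 and oligodendrocytes in Apod in both libraries. Over neuron sub-clusters Lrp1 was even, from 64.7 to 116 CPM aged and 61.3 to 126 CPM young, and was higher in the aged library in 10 and lower in 13 of 23. Free RNA held 88.5 CPM aged and 95.4 CPM young, about the neuronal level. It was estimated at 9.84% of aged and 9.92% of young neuronal UMIs, so the neuronal level can hold RNA of the neurons. Pid1, which encodes a protein that binds LRP1, was nearest to Lrp1 over classes (r = 0.99).

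**Figure D5:**
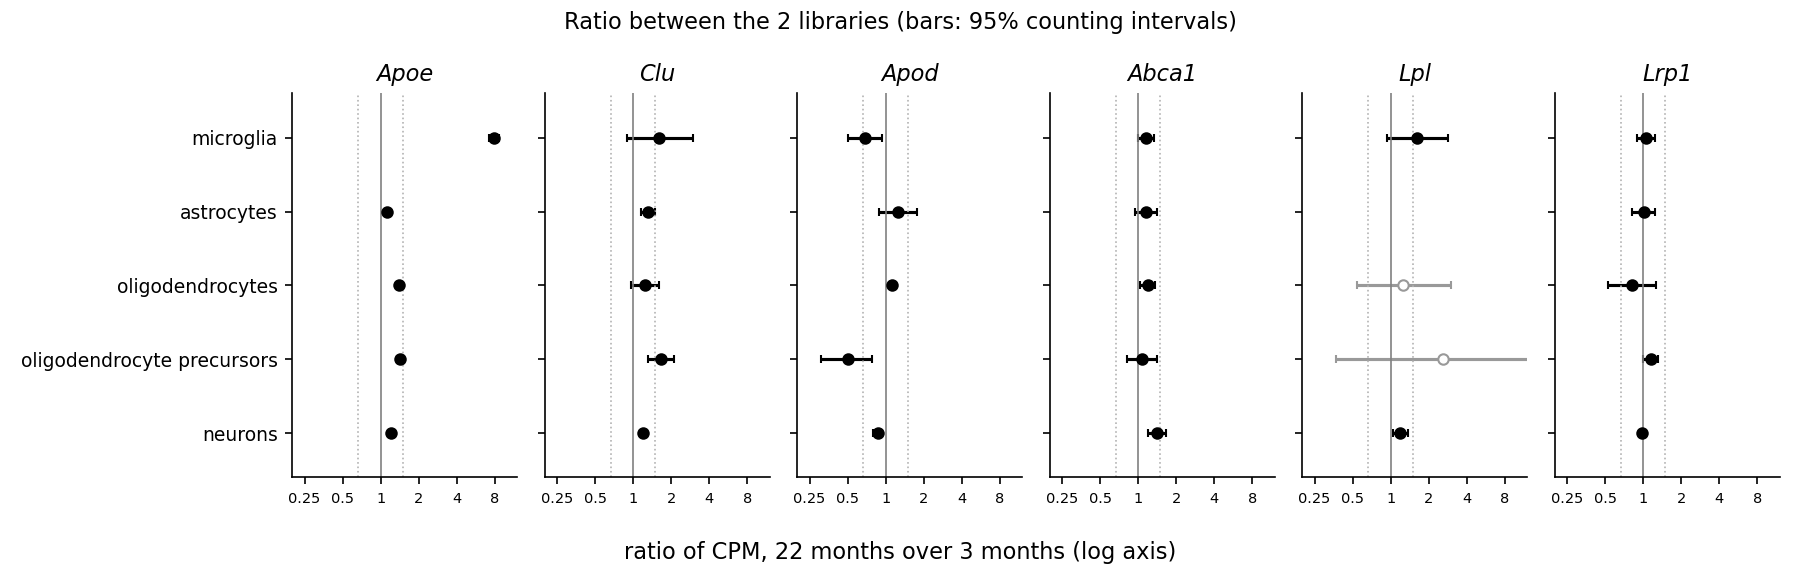
Ratio of CPM, 22 months over 3 months (log axis), for each gene and class with 95% counting intervals, a line at 1 and dotted lines at 1.5 in each direction. Apoe in microglia (7.86) is the farthest from 1, hollow grey points rest on under 50 UMIs, the interval of Lpl in precursors runs past the axis to 28.4, and Lpl in astrocytes is not drawn because the aged library had 0 UMIs.

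The wider set of genes for lipid carriage, export, lipolysis, uptake, sterol synthesis and droplets held 98 genes, 92 without the 6 described. In microglia 31 of these 92 were measured, 4 passed 1.5-fold upward and 2 downward, where 7.97% and 4.75% of all features did. Abca3, a phospholipid transporter, had 86.5 CPM aged and 51.2 CPM young (ratio 1.69, 1.17 to 2.47). Srebf2, the switch of cholesterol synthesis, had 53.4 and 30.9 CPM (1.73, 1.07 to 2.83). Sorl1, a sorting receptor that binds apolipoprotein E, had 84.4 and 52.3 CPM (1.61, 1.12 to 2.35). Hmgcs1, an enzyme of cholesterol synthesis, also passed, with an interval that includes 1. The scavenger receptor Stab1 (150 and 240 CPM) and Mgll, which cleaves monoglycerides, passed downward. The median log2 ratio of the 31 was 0.11, against 0.04 over all features measured in microglia.

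In oligodendrocytes 56 of the 92 were measured, 5 passed upward and 0 downward, where 7.04% and 2.76% of all features did. Abca8a, a lipid transporter of myelinating cells, had 387 CPM aged and 210 CPM young (ratio 1.84, 1.70 to 2.0). Plin4, a coat protein of lipid droplets, had 80.0 and 44.6 CPM (1.79, 1.5 to 2.15), and Sorcs3, a sorting receptor, 124 and 82.6 CPM (1.5, 1.31 to 1.72). Without the nuclei named committed precursors Sorcs3 stood at 1.49 and did not pass. Pnpla2, the first lipase of lipid droplets, and Fabp7, a fatty acid binding protein, passed at 10.8 and 8.81 CPM aged against 6.37 and 5.01 CPM young. The median log2 ratio was 0.11, against 0.09 over all features of the class.

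In astrocytes 37 were measured, with 4 upward and 1 downward, beside 7.42% and 6.03% of all features. Fabp5, Npc1, Lcat and Cyp46a1 passed upward, genes of fatty acid binding, lysosomal cholesterol release, cholesterol esterification and cholesterol turnover. Of these Fabp5 had 98.8 CPM aged and 57.4 CPM young (ratio 1.72, 1.19 to 2.49) and Npc1 75.9 and 45.6 CPM, while the interval of Cyp46a1 (0.843 to 2.75) includes 1. Lipe, a lipase, passed downward with 19.4 CPM aged and 39.7 CPM young (ratio 0.489, 0.229 to 0.957). Without the 4 aged nuclei rich in neuron markers the ratios were 1.86 for Fabp5, 1.76 for Npc1, 1.83 for Lcat, 1.5 for Cyp46a1 and 0.528 (0.247 to 1.03) for Lipe. The 14 measured genes of sterol regulation had a median log2 ratio of 0.37 in astrocytes, or 0.41 without those 4 nuclei, against 0.03 over all features of the class. The median of such genes was 0.21 in microglia (9 genes), 0.07 in oligodendrocytes (18), 0.02 in precursors (10) and 0.09 in neurons (20). Other groups of the list had medians in astrocytes of 0.12 (apolipoproteins, 1 gene), 0.06 (exporters, 4) and -0.55 (lipases, 2). Receptors (10) stood at 0.10 and fatty acid binding and droplets (6) at -0.03. Of the 14 sterol genes 2 passed upward in astrocytes, and nothing is read from the group. In precursors 33 were measured and 2 passed upward, Lrp5 (42.6 CPM aged, 20.9 CPM young) and Fabp5, and 0 downward, beside 6.9% and 6.76% of all features. In neurons 75 were measured, with 4 upward (Apool, Apoa1, Abca8a and Cd36) and 2 downward (Lrp4 and Plin2), beside 3.04% and 6.39%. Nothing about the list is read from these counts. Of these Apool had 11.3 CPM aged and 6.59 CPM young and Apoa1 12.6 and 7.54 CPM, and the other 4 were at or under 2.04 CPM in both libraries.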

How the data were processed

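The authors deposited, per library, an unfiltered table of UMI counts by feature and barcode, which the file headers credit to Cell Ranger 4. Genome build, annotation, intron use and strand setting are not stated in the sources read. Libraries held 79107368 aged and 87520038 young UMIs. Barcodes with 500 genes and at most 5% mitochondrial UMIs were kept (86 aged and 80 young removed), Scrublet doublets were left out, and both libraries were clustered with scanpy 1.11.5 (2000 variable genes, 30 components, 15 neighbours, Leiden resolution 1). Clusters were named from marker lists and no deposited annotation was used. Sub-clusters were made without the 98 lipid genes. UMIs were summed per class. CPM intervals are exact Poisson, ratio intervals exact conditional binomial and share intervals Clopper-Pearson (95%). Log2 ratios add 5 CPM. No count model was used because each age has 1 library, so age, pool and library cannot be told apart. Leading genes of the wider lists were those past 1.5-fold with 50 UMIs, up to 5 a class, and the 3 with highest r. The interval code was tested on simulated data. Genes, lists and rules were chosen with earlier results of these data known. Promoter windows are from RefSeq (GRCm38.p6), which matched 4 of 6 genes.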

Additional observations from a re-analysis of the deposited data

Results flagged for a closer look

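Apoe differed between the libraries in opposite directions in related cells: it was 7.86-fold higher at 22 months in microglia and stood at a ratio of 0.581 in border macrophages, which had 15 aged and 24 young nuclei. Apod did so too, with a ratio of 3.77 in fibroblasts, which falls to 1.56 in the cluster that both libraries share, and 0.499 in oligodendrocyte precursors at a level under free RNA. The aged precursor level of Apod is read as background. Neither difference between classes was tested.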

How the results depend on the processing

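No paired analysis was possible because each age has 1 library. The settings with border macrophages joined to microglia or left out, without microglial sub-cluster 1 or astrocyte sub-cluster 1, and without nuclei named committed precursors at resolution 2, were chosen after seeing the data. The log2 ratio of Apoe in microglia (2.96) was 2.17 under the 2-stage call, 1.89 at 1000 genes and 2.22 with doublets kept, settings in which 9 to 12 aged and 10 to 15 young border macrophage nuclei counted as microglia. With these left out it was 2.96, 3.20 and 3.05. It was 1.71 with all border macrophages added, 1.77 without sub-cluster 1 and 3.43 with free RNA subtracted. Free RNA subtraction also moved Apoe (0.38) and Clu (0.59) in astrocytes, where its estimated fraction was 21.9% aged and 6.14% young, and Apod in oligodendrocytes (0.25). The aged astrocyte fraction counts neuron markers, of which 4 nuclei held 797 of 1331 UMIs. It can therefore be too high, and the subtraction in astrocytes too large. Apoe in astrocytes (0.15 as reported) was 0.24 without their sub-cluster 1. Apod in oligodendrocytes, 0.17 as reported, was 0.066 under median-ratio scaling and 0.089 with nuclei weighted alike. It was 0.10 at resolution 2 or without nuclei named committed precursors. The ratios of Lpl and Abca1 in microglia and of Lrp1 in neurons stayed within their counting intervals in every setting run. Of 296 values for the other 23 ratios, 268 stayed within the interval and 28 moved, and 14 ratios kept their sign throughout.

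Genes of the wider list, with the 6 included, past the limit in microglia, astrocytes, oligodendrocytes, precursors and neurons were 9, 5, 5, 4 and 6 as reported, 18, 12, 8, 11 and 10 at 20 UMIs, 40, 26, 25, 34 and 16 with no minimum, and 1, 1, 0, 2 and 0 at a limit of 2. The share of nuclei, aged minus young in percentage points, was 0.20 for microglia and 1.18 at 1000 genes. For oligodendrocytes it was 1.41, 2.85 under the 2-stage call and 5.31 at 1000 genes. For neurons it was -3.88, -0.46 under the 2-stage call and 1.58 at a mitochondrial limit of 1%. The cause was not tested. Depth limits the microglial ratios of Lpl and Clu, which rest on 60 and 52 UMIs over both libraries.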
